A study of Mus musculus with 4 samples.

Results

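Cytotoxic lymphocytes kill target cells with a shared set of effector molecules, and 9 of the genes behind that set were followed here in immune cells of the mouse ovary: Gzma, Gzmb, Gzmk, Prf1, Nkg7, Ifng, Fasl, Eomes and Tbx21. They were chosen by name, for what their products do, and were all found among the 31053 genes of the deposited matrices. The study sorted CD45+ CD11b+ cells, labelled as myeloid, from the ovaries of virgin wild-type C57BL/6J mice at an age labelled 3 months (harvested at 2 to 3 months) or 15 months (harvested at 14 to 17 months), with no treatment. Each age had 3 hashtag pools, which are cell suspensions marked by an antibody that carries a sequence tag. The 3 pools were joined before 1 sort and 1 10x Chromium 3' library, so age and library cannot be told apart. The series text gives 2 mice to each pool, whereas the protocol gives 6 young and 5 old animals, with 1 old pool from a single mouse. CD11b (Itgam) is carried by many natural killer (NK) cells and by some T cells, so the lymphocytes described here are those that passed a myeloid gate and not the lymphocytes of the ovary at large.

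Granzymes are serine proteases stored in cytotoxic granules, and perforin, the product of Prf1, forms the pores through which they enter the target cell. NK cells are innate lymphocytes, whereas CD8 T cells fill their granules after activation. Transcripts were measured here, and not the proteins in the granules. The T-box factors T-bet (Tbx21) and Eomes direct the effector programme in both lineages, and NK cells are known to need both for full maturation.

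Cells were assigned by gates on raw counts of unique molecular identifiers (UMIs, each standing for 1 captured transcript), none of which used a member. An NK cell had at least 2 UMIs of Ncr1, Klrb1c and Klre1 together and at most 1 of Cd3d, Cd3e and Cd3g. A T cell had at least 2 Cd3 UMIs and 0 of Ncr1. Barcodes were kept if they had 500 genes or more, 1000 gene UMIs or more and a mitochondrial share of 10% or less. These held 203 NK and 47 T cells of 2232 at 3 months, and 209 NK and 127 T cells of 4347 at 15 months. The libraries held 27277073 and 45060166 gene UMIs over 3135 and 4939 barcodes. They shared 3 barcodes, 1 of which was an NK or T cell. Levels are given as CPM, the UMIs of a gene in every 1000000 gene UMIs of the class. A 3' tag is read once for each transcript, so this level is not scaled by transcript length.

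Markers outside the gate bore out the NK label in part. Klrd1 was detected in 88.2% and 89.0% of NK cells at 3 and 15 months, and in 55.3% and 37.0% of T cells. The Ly49 receptor genes Klra4 and Klra8 were detected in 31.1% to 40.4% of NK cells and had 0 UMIs in T cells. Cd4 and Tcrg-C1 had 0 UMIs in NK cells. Itga2 was detected in 21.7% and 37.8% of NK cells, and Itgam in 30.05% and 59.8%. In T cells Itga2 was detected in 4.26% and 1.575%, and Itgam in 36.2% and 46.5%. No gate set type 1 innate lymphoid cells apart, and Itga1, a marker of theirs, was detected in 7.39% and 17.2% of NK cells. Trdc, the T cell receptor delta constant gene, did not separate the classes: it was detected in 10.8% and 6.22% of NK cells and in 10.6% and 7.09% of T cells. Trac, the T cell receptor alpha constant gene, was seen in 66.0% and 74.8% of T cells and in 6.40% and 10.0% of NK cells. Many barcodes passed the gate of a further cell type. Of the T barcodes, 20 of 47 (42.6%) at 3 months and 58 of 127 (45.7%) at 15 months also carried at least 10 UMIs of the macrophage genes C1qa, C1qb and C1qc, against 8 (3.94%) and 7 (3.35%) of the NK barcodes. The summed level of those 3 genes ran from 1237 to 6263 CPM over the 5 T cell pools with at least 5 cells and from 28.0 to 1009 CPM over the 6 NK pools. T barcodes were also deeper, with a median of 9191 and 7594 UMIs against 3086 and 4197 in NK cells. The monocyte gate (at least 3 UMIs of Ly6c2, Ace, Treml4 and Ccr2 together) was also passed by 28.6% and 35.4% of NK and by 59.6% and 47.2% of T barcodes. The NK against T fit was therefore repeated without barcodes that pass the B cell, macrophage, neutrophil, fibroblast or mast cell gate. That fit had 4 pools, and it kept barcodes that pass the monocyte or a dendritic cell gate, whose part in the results was not tested.

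Gzma and Gzmk both lie on the minus strand of chromosome 13, with 70626 bases between them (GRCm38, GENCODE M21), at chr13:113093825-113100981 and chr13:113171608-113225908. Gzmb lies at chr14:56258838-56262260, Prf1 at chr10:61297833-61304680 and Ifng at chr10:118441046-118445892. Nkg7 lies at chr7:43437073-43438249, Fasl at chr1:161780689-161788495, Eomes at chr9:118478212-118486132 and Tbx21 at chr11:97098071-97115331. Promoters are shown because most members were higher in NK cells than in T cells and because 2 members encode T-box factors. RefSeq promoters (250 bases before to 50 after each start site, GRCm38.p6) were matched for all 9 members. The T-box core AGGTGT, searched on both strands, was present in 4 of the 9 member promoters and in 13.7% of all 32851 promoters of that length. The 8-letter T-box motif AGGTGTGA, which contains that core, was present in 1 member (Nkg7) and in 1.28% of all promoters. The RUNX motif TGTGGT was found in 4 members (Gzma, Gzmb, Prf1 and Nkg7) and in 16.8% of all promoters, and the STAT motif TTCNNNGAA in 3 members (Gzmb, Nkg7 and Ifng) and in 8.3% of all. A match is a string of letters and not a measured binding site. The 250 bases before the start site of the 4 promoters with the T-box core follow, 5' to 3' on the gene's own strand, with each core or its reverse complement in capitals.
Nkg7, plus strand, chr7:43436888-43437137: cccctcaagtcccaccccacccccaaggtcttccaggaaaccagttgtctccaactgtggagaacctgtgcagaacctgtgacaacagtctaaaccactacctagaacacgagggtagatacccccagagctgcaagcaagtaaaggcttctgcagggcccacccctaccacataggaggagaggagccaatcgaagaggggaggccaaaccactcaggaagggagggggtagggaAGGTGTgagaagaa
Prf1, plus strand, chr10:61297586-61297835: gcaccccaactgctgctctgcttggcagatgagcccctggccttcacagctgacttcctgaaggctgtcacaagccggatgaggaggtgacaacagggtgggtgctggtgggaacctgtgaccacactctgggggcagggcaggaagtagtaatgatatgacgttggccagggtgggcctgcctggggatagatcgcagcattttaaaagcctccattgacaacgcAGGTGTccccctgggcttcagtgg
Gzma, minus strand, chr13:113100982-113101231: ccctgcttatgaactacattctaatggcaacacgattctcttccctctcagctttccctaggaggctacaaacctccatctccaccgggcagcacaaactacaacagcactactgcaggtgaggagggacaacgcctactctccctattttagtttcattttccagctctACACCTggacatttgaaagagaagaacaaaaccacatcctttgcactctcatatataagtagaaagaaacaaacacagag
Gzmk, minus strand, chr13:113180966-113181215: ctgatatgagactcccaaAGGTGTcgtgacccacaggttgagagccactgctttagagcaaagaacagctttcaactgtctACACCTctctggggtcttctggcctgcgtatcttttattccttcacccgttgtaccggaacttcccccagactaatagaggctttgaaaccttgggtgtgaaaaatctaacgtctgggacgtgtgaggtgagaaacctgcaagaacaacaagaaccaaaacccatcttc
Counted from the RefSeq start site, the core starts at position -14 in Nkg7, -24 in Prf1 and -80 in Gzma, and at -232 and -169 in Gzmk. Whether its position relates to the level of a gene was not tested. The RefSeq start sites of Gzmk and Nkg7, and by a few bases that of Prf1, lie inside the longer gene models of GENCODE M21. Their windows need not be the promoters in use in these cells, and the positions hold for the RefSeq start sites only.

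NK cells held most transcripts of each member in these sorts, except for Gzmk. Of the UMIs in all kept barcodes, 93.5% (3 months) and 97.9% (15 months) of Gzma, 90.7% and 91.8% of Gzmb, 95.2% and 95.9% of Prf1, and 92.7% and 82.0% of Ifng lay in NK cells. The NK share was lower for Nkg7 (85.6% and 79.4%), Fasl (75.2% and 70.0%), Eomes (88.0% and 63.1%) and Tbx21 (86.8% and 60.7%). At 15 months T cells held 32.8% of the Eomes UMIs, and barcodes outside the NK and T gates held 22.9% of those of Tbx21. For Gzmk the T cells held 27 of 29 UMIs (93.1%) and 98 of 101 (97.0%). In macrophages, taken as a class that should lack these transcripts, no single member was detected in more than 1.51% of the 472 and 729 barcodes. Median depths there were 8070.5 and 9865 UMIs. That class admits at most 1 UMI of the NK gate genes and at most 1 of the Cd3 genes, so barcodes mixed with a lymphocyte would tend to be left out beforehand. After every cell was thinned to 2000 UMIs, the median number of members detected was 5 in NK cells and 1 in T cells at both ages. No member at all was found in 4 of 189 and 6 of 204 thinned NK cells, against 17 of 47 and 49 of 125 thinned T cells.

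**Figure D1:**
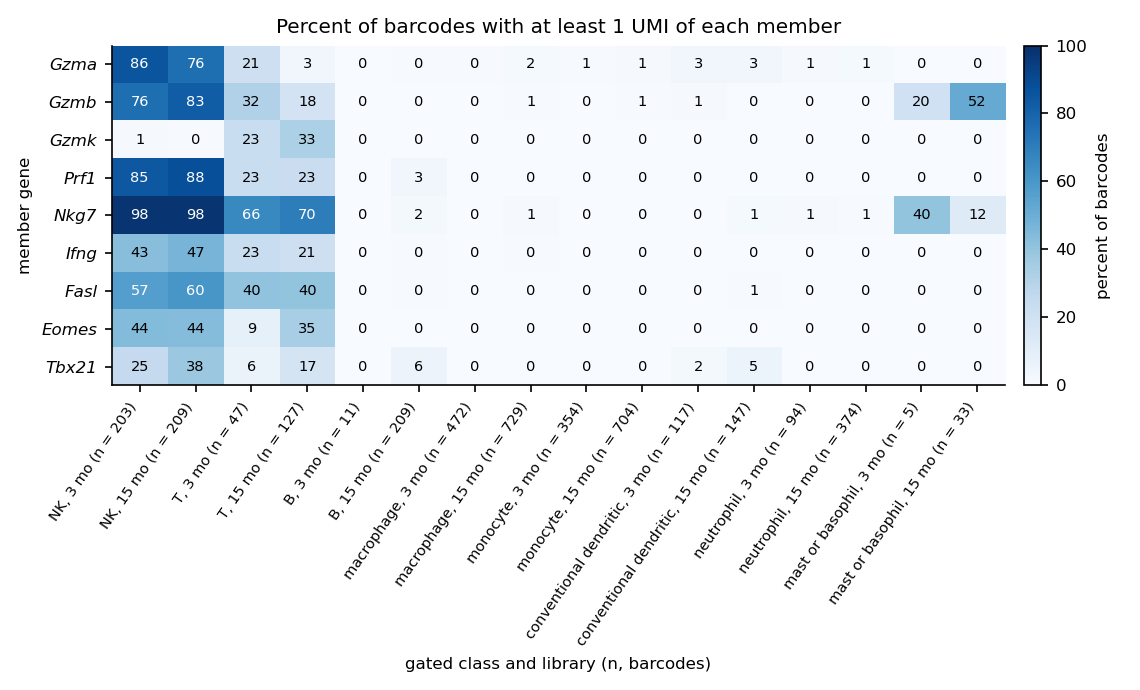
Percent of barcodes with at least 1 UMI of each member (rows) in each gated class and library (columns, with the number of barcodes). Values are not thinned, and n is 1 library per age. NK shares run from 25.1% (Tbx21, 3 months) to 98.1% (Nkg7, 15 months) for every member but Gzmk (0.985% and 0.479%). In T cells Nkg7 reaches 66.0% and 70.1%. Gzmb stands out in the mast or basophil column at 15 months (51.5% of 33 barcodes).

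Between NK and T cells of the same pools, 7 of the 9 members could be tested, and all 7 were higher in NK cells by edgeR's quasi-likelihood test on UMIs summed for each pool and class (5 pools, pool as a block, Benjamini-Hochberg adjusted p under 0.05). Of all 2667 genes tested, 21.7% were called, 9.11% as higher in NK cells and 12.6% as higher in T cells. The median log2 ratio of NK over T was 2.79 over the 7 members and 0.015 over all genes tested. Gzmk and Tbx21 did not pass the filter on low counts and are given by their counts below. The 3-month pool 1 held 1 T cell and did not enter.

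Gzma, which encodes the tryptase granzyme A, had the highest fitted ratio. Its NK levels were 14670, 7132 and 8520 CPM in the 3-month pools 1, 2 and 3, and 13460, 14530 and 10170 CPM in the 15-month pools. In T cells it stood at 1366 and 103.8 CPM in the 3-month pools 2 and 3, and at 0, 182.9 and 13.9 CPM in the 15-month pools. Every NK pool was above every T pool. The log2 ratio of NK over T was 6.25 ± 0.91 (SE, edgeR adjusted p = 0.000673).

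Gzmb encodes granzyme B, which cleaves caspases and other proteins after aspartate. NK pools stood at 3045, 992.9 and 1418 CPM at 3 months and at 1810, 2357 and 2228 CPM at 15 months. T pools stood at 665.3 and 69.2 CPM at 3 months and at 61.4, 66.8 and 19.5 CPM at 15 months. Again the classes did not overlap, and the log2 ratio was 4.11 ± 0.713 (SE, edgeR adjusted p = 0.00209).

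Prf1 set NK and T pools far apart. It ranged over the NK pools from 510.4 CPM (3-month pool 2) to 2179 CPM (15-month pool 2), and over the T pools from 17.6 to 36.2 CPM. Its log2 ratio was 5.72 ± 0.324 (SE, edgeR adjusted p = 4.32e-06), which placed it 2nd by p among all genes tested. Nkg7 encodes a granule membrane protein involved in the release of granule contents. It was detected in 98.0% and 98.1% of NK cells and also in 66.0% and 70.1% of T cells. NK pools lay between 2426 and 3958 CPM and T pools between 204.8 and 770.4 CPM, so that the log2 ratio came to 2.45 ± 0.267 (SE, adjusted p by edgeR 9.78e-05).

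Gzmk, another tryptase of the granzyme family, showed the opposite order. NK cells had 2 UMIs at 3 months and 1 at 15 months, in 203 and 209 cells. T cells had 27 UMIs in 11 of 47 cells (23.4%, exact 95% interval 12.3 to 38.0%) and 98 UMIs in 42 of 127 cells (33.1%, 24.98 to 41.97%). Barcodes called as hashtag doublets held 16 of the 27 UMIs (59.3%), in 6 of the 11 cells, at 3 months. At 15 months they held 20 of the 98 (20.4%). Per gene UMI the T over NK ratio was 25 (exact 95% interval 6.28 to 217) at 3 months and 70.1 (12.3 to 2795) at 15 months, intervals that cover counting error within 1 library only. T pools stood at 105.0 and 9.89 CPM at 3 months and at 71.7, 51.0 and 117.1 CPM at 15 months, all above the NK pools, the highest of which was 5.86 CPM. Without the low-count filter the log2 ratio of NK over T was -4.87 ± 0.612 (SE, edgeR adjusted p = 1.38e-13). In that setting the NK over T SE fell from 0.91 to 0.155 for Gzma and from 0.713 to 0.201 for Gzmb, and rose from 0.195 to 0.246 for Ifng. Its p-values may therefore leave out much of the spread between pools.

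Ifng, the gene of the cytokine interferon gamma that activates macrophages, was detected in 42.9% and 46.9% of NK cells. NK pools held 394.2, 643.3 and 270.4 CPM at 3 months and 298.8, 437.5 and 248.3 CPM at 15 months, against 25.1 to 81.7 CPM in the T pools. The log2 ratio was 2.79 ± 0.195 (SE, edgeR adjusted p = 1.11e-05). Fasl, the ligand of the death receptor Fas, was also common in T cells, at 40.4% and 40.2% of cells against 56.7% and 60.3% of NK cells. NK pools lay between 198.3 and 275.4 CPM and T pools between 10.2 and 97.6 CPM, so that the log2 ratio came to 1.54 ± 0.302 (SE, adjusted p by edgeR 0.00433).

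The T-box genes had lower counts. Eomes stood at 269.7, 188.8 and 162.2 CPM in the 3-month NK pools and at 128.9, 234.5 and 110.4 CPM in the 15-month NK pools. In T cells it stood at 0 and 9.89 CPM at 3 months and at 102.4, 40.5 and 119.9 CPM at 15 months, so that at 15 months the T pools reached the range of the NK pools. Its log2 ratio of NK over T, 1.60 ± 0.512 (SE), was just past the threshold (edgeR adjusted p = 0.0492). Tbx21 had 66 and 122 UMIs in NK cells and 3 and 33 in T cells, an NK over T ratio per gene UMI of 11.9 (exact 95% interval 3.89 to 59.1) at 3 months and 5.17 (3.50 to 7.85) at 15 months. NK pools lay between 35.0 and 175.8 CPM and T pools between 0 and 33.4 CPM. Without the low-count filter the log2 ratio was 2.15 ± 0.341 (SE, edgeR adjusted p = 1.45e-08), with the limit on that setting given for Gzmk.

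**Figure D2:**
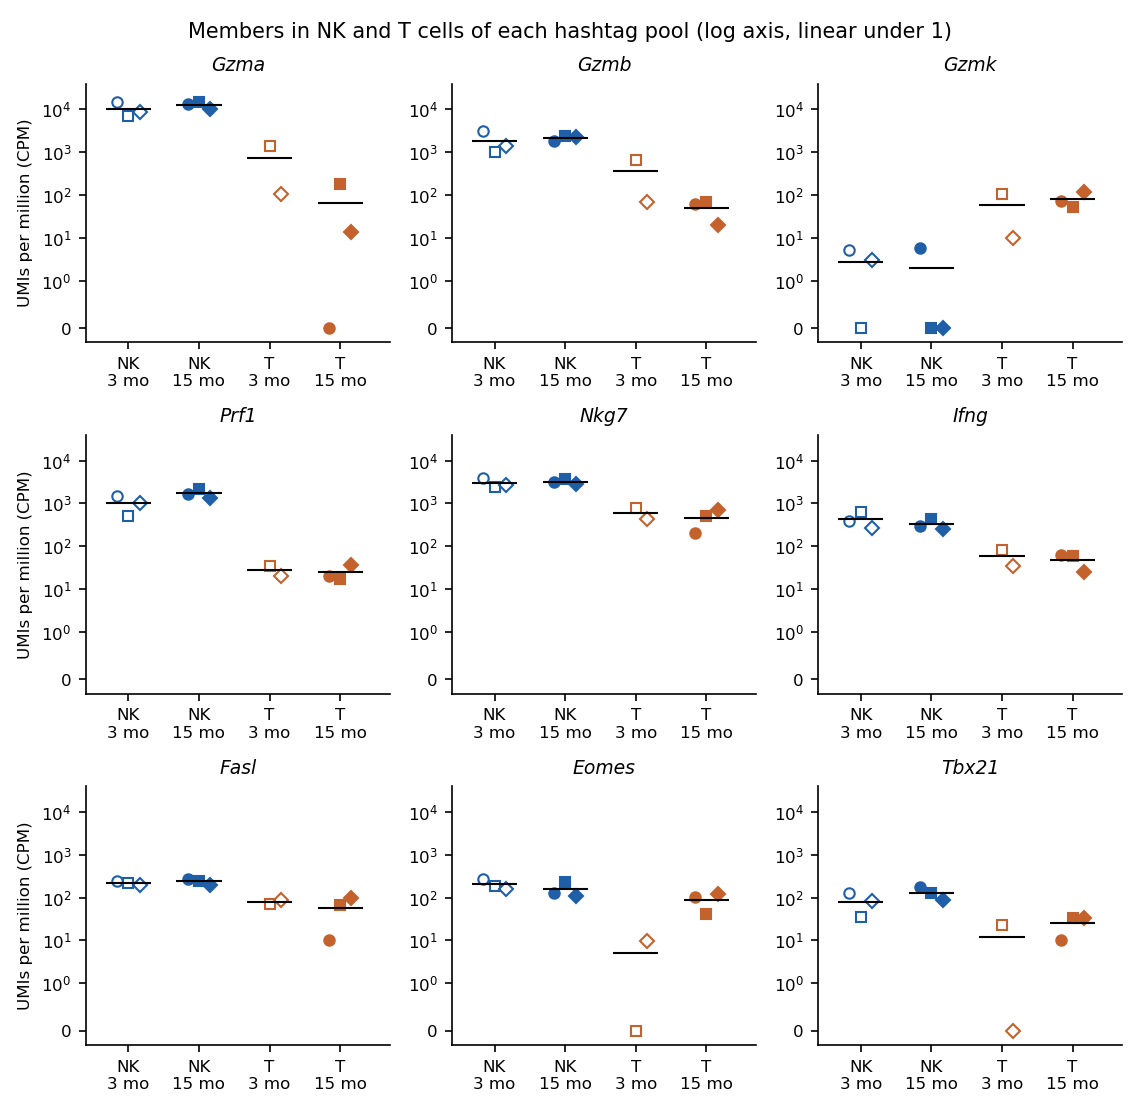
Level of each member in NK (blue) and T (orange) cells, in CPM on a log axis that is linear under 1. Open symbols are 3 months and filled symbols 15 months, the marker shape gives the pool (circle 1, square 2, diamond 3), and the bar is the mean of the pools shown. Every NK pool lies above every T pool for Gzma, Gzmb, Prf1, Nkg7, Ifng, Fasl and Tbx21, for Tbx21 by only 34.96 against 33.45 CPM. The order is reversed for Gzmk, and the Eomes pools of T cells at 15 months reach the NK range. The share of all genes without overlap between the classes was not counted, so the lack of overlap is a description.

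Leaving out barcodes that also passed 1 of those 5 gates left 5 of the 7 calls in place. The fit also lacked the 3-month pool 2, and the part of that loss in the changes was not tested. In that fit, 120 of all 2062 genes tested were called higher in NK cells and 157 lower. Gzma then had a log2 ratio of NK over T of 5.74, Gzmb 4.21, Prf1 5.02, Nkg7 1.84 and Ifng 2.37, with edgeR adjusted p-values from 9.78e-08 to 0.000185. Tbx21 could be tested there and was higher in NK cells (1.63 ± 0.446, SE, adjusted p = 0.0204), whereas Gzmk again did not pass the low-count filter. Fasl, at 0.98 (adjusted p = 0.0958), and Eomes, at 0.65 (adjusted p = 0.491), no longer passed. The Eomes call also failed without the 15-month pool 2 (1.23, adjusted p = 0.271), the 3-month pool 3 (1.29, adjusted p = 0.122) or the 3-month pool 2 (1.41, adjusted p = 0.0703).

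Genes that act with the members were taken from lists, and their NK over T differences were counted by the same edgeR test. Of 22 granule genes, 9 were tested, 4 higher in NK cells and 3 lower (median log2 ratio 0.156). The serpins Serpinb6b (log2 ratio 3.04 ± 0.254) and Serpinb9 (3.18 ± 0.296), the latter an inhibitor of granzyme B that protects the killer cell, and the cathepsin Ctsw (1.964 ± 0.20) were higher. Lamp1, a membrane protein of all lysosomes and abundant in macrophages, was lower (-1.88 ± 0.166). Serglycin (Srgn), the proteoglycan that packs granzymes, was at 1590 and 1726 CPM in NK cells, 1670 and 1410 CPM in T cells and 1248 and 1105 CPM in macrophages. Of the further granzymes, Gzmd, Gzme, Gzmg and Gzmn had 0 UMIs in NK and T cells. Gzmc, which neighbours Gzmb in a cluster of similar genes, had 228 and 64 UMIs in NK cells, each time in 19 cells. The granzymes of that cluster, and the Ly49 genes below, are similar in sequence, so their counts are uncertain where reads fit several copies.

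Of 27 receptor and adaptor genes, 22 were tested, 17 were higher in NK cells and 1 lower, with a median log2 ratio of 2.72. Among them, the Ly49 gene Klra9 stood at 521.2 ± 217.6 and 730.2 ± 89.8 CPM (SD, n = 3 pools) in NK cells and at 9.89 ± 14.0 (n = 2) and 24.28 ± 15.97 CPM (n = 3) in T cells. Klra3, another Ly49 gene, stood at 174.7 and 329.2 CPM in NK cells and at 2.47 and 3.37 CPM in T cells, as pool means. The inhibitory receptor gene Klrg1 and the lectin receptor gene Klrb1f had 0 UMIs in the T pools at 3 months and at most 8.80 and 1.76 CPM in the T pools at 15 months. Of 15 cytokine and death ligand genes, 6 were tested, 4 higher and 1 lower. The chemokine genes Xcl1 (3.83 ± 0.379), Ccl4 (2.29 ± 0.20) and Ccl3 (1.87 ± 0.222) were higher in NK cells, and Ltb, which encodes lymphotoxin beta, was lower (-1.23 ± 0.188).

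Of 15 cytokine receptor and signalling genes, 8 were tested, 6 higher and 1 lower in NK cells. They included Il2rb (2.97 ± 0.216), which encodes the receptor chain shared by IL-2 and IL-15, Il18rap (3.16 ± 0.316), Stat4 (1.56 ± 0.192), which carries the IL-12 signal to Ifng, and Ifngr1 (1.02 ± 0.138). Of 20 transcription factor genes, 9 were tested, 5 higher and 1 lower. Irf8 (3.597 ± 0.256), Bhlhe40 (1.69 ± 0.175), Ikzf3 (1.16 ± 0.227) and Runx3 (0.82 ± 0.173) were higher. The errors in these lists are SE, and the edgeR adjusted p-values of the genes named with a ratio ran from 1.11e-05 (Il2rb and Irf8) to 0.00674 (Runx3). Without barcodes of the 5 other classes, 4 of these genes no longer passed: Lamp1 (-0.65, adjusted p = 0.352), Ifngr1 (0.46, 0.143), Ikzf3 (0.49, 0.393) and Runx3 (0.21, 0.665). Ccl4 and Ccl3 then stood at log2 ratios of 4.29 and 4.46. In that fit, 4 of 8 granule, 4 of 6 cytokine and 17 of 22 receptor genes were called higher in NK cells. So were 4 of 8 cytokine receptor and 3 of 9 transcription factor genes. Called lower were 1 cytokine and 1 cytokine receptor gene. Over all 2062 genes of that fit, 120 were called higher and 157 lower.

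Within NK cells the members did not appear evenly. Cells with and without a Gzma UMI after thinning to 2000 UMIs were set side by side as a description, since such a split rests on detection in each cell. At 3 months 31 of 189 thinned NK cells had no Gzma UMI, and at 15 months 49 of 204. Prf1 was detected in 77.8% of cells with Gzma and 32.3% without at 3 months, and in 92.3% and 34.7% at 15 months. Gzmb followed the same order, with 75.3% and 38.7%, and 87.1% and 40.8%. For Eomes the shares were 38.0% and 6.45% at 3 months, and 33.5% and 2.04% (1 of 49 cells) at 15 months. Fasl did not follow: 36.7% and 35.5% at 3 months, and 39.4% and 36.7% at 15 months, with overlapping exact 95% intervals.

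The cells without Gzma differed in genes outside the member list as well. Cxcr6, a chemokine receptor gene of tissue-resident lymphocytes, was detected in 1 of 158 cells with Gzma and 9 of 31 without (29.0%) at 3 months, and in 0 of 155 and 21 of 49 (42.9%) at 15 months. Itga1, whose product CD49a marks type 1 innate lymphoid cells, stood at 2.53% and 16.1% at 3 months and at 1.94% and 32.7% at 15 months. Tmem176b and Il7r were also detected more often without Gzma, at 46.9% against 3.87% and 14.3% against 0.0% of cells at 15 months. Itga2, Klrg1 and Zeb2, known from mature NK cells, were detected more often with Gzma, Zeb2 for instance in 50.3% against 6.12% of cells at 15 months. Nkg7 was common in either kind of cell, at 98.7% and 83.7% at 15 months. In all 6 pools the share of cells with Prf1, Gzmb, Eomes, Tbx21, Zeb2 and Klf2 was higher in cells with Gzma, and that of Cxcr6 and Tmem176b lower. The gate genes took part, with Klre1 in 83.9% and 20.4% and Ncr1 in 74.8% and 57.1% at 15 months, so the cells without Gzma lie nearer the edge of the NK gate.

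**Figure D3:**
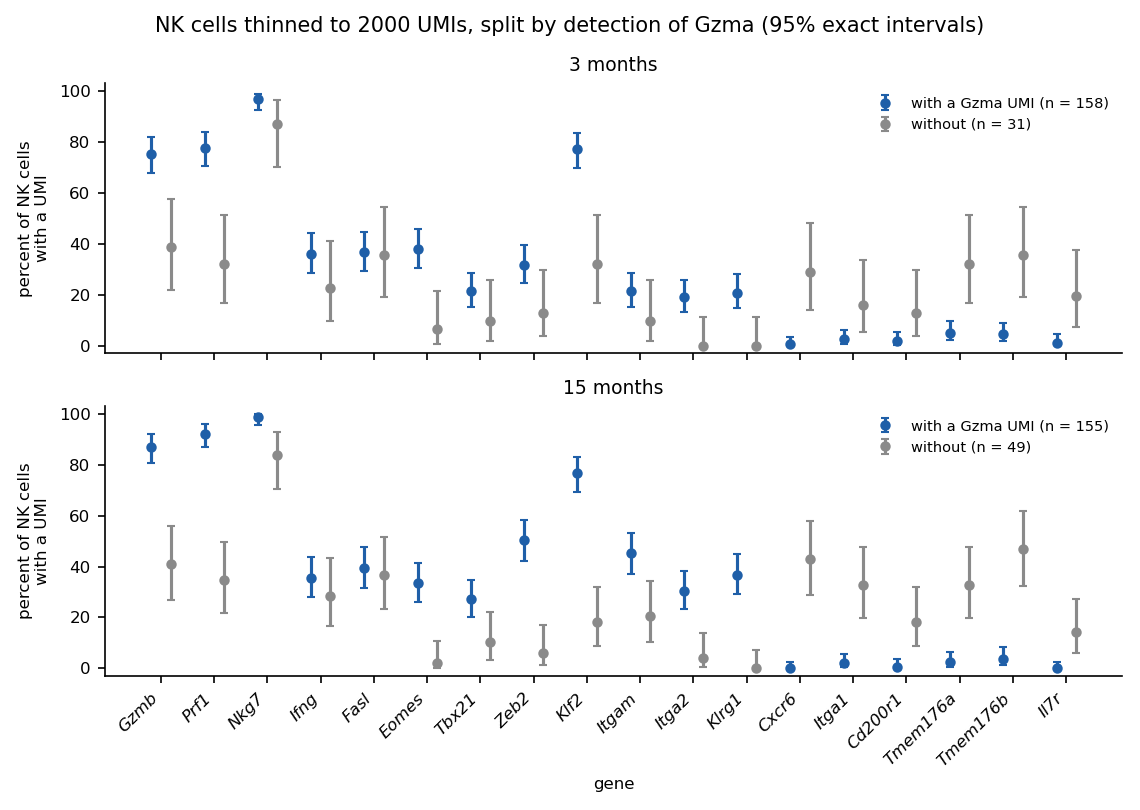
Percent of NK cells with a UMI of each gene after thinning to 2000 UMIs, for cells with (blue) and without (grey) a Gzma UMI, at 3 months (top) and 15 months (bottom). Bars are exact 95% intervals for counting error within 1 library. Eomes, Zeb2 and Klf2 are lower, and Cxcr6, Tmem176a and Tmem176b higher, in cells without Gzma at both ages. The Zeb2 intervals overlap at 3 months.

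The 15-month pool 3 stood apart in this respect. There 18 of 32 thinned NK cells (56.2%) lacked Gzma, whereas the 3-month pools had shares of 8.62%, 13.3% and 15 in 75, and the 15-month pools 1 and 2 of 18.2% and 16.8%. Cxcr6 was detected in 8 of its 32 NK cells and in 3.33% to 9.09% in the other 5 pools, Tmem176b in 34.4% and in 3.45% to 9.33%, and Eomes in 9.38% and in 15.9% to 44.8%. Its Gzma level over all NK cells was 10170 CPM, of which 1 barcode held 337 of 1474 UMIs. Without barcodes of the 5 other classes the level was 9196 CPM. The protocol does not say whether this is the pool from a single old mouse.

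With age, 0 of the 8 members tested in NK cells passed the threshold (edgeR, 3 against 3 pools), where 7 of 2717 genes (0.258%) were called over the whole table. The largest member difference was that of Prf1. It stood at 1473, 510.4 and 1021 CPM at 3 months and at 1623, 2179 and 1331 CPM at 15 months, with overlap between the ages (log2 ratio 0.77 ± 0.305, SE, unadjusted p = 0.0276, adjusted p = 0.377). Without the low-count filter the same contrast gave 0.74 at an edgeR adjusted p of 0.0059. Its SE was then 0.174, which may leave out spread between pools. Tbx21 had 124.5, 35.0 and 81.1 CPM at 3 months and 175.8, 124.8 and 89.7 CPM at 15 months (0.64 ± 0.359, SE, adjusted p = 0.485). The log2 ratio of Gzma was 0.33 ± 0.22, of Gzmb 0.23 ± 0.306, of Fasl 0.14 ± 0.188, of Nkg7 0.11 ± 0.182, of Eomes -0.26 ± 0.294 and of Ifng -0.32 ± 0.298 (SE, edgeR adjusted p from 0.551 to 0.83). None of the genes of the 5 lists was called in this comparison either. The 7 called genes were the ribosomal-RNA-related Gm42418 and AY036118, S100a6 and Lars2 (higher at 15 months), and the haemoglobin genes Hbb-bs, Hba-a1 and Hba-a2 (lower). Haemoglobin transcripts made up a median of 0.0628% to 0.0996% of the UMIs of an NK cell in the 3-month pools and 0.0% in the 15-month pools, and their part in other differences was not tested.

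In T cells 7 members were tested with age, on 2 pools against 3, and none passed, where 1 of 3198 genes (0.0313%, Hbb-bs) was called. Gzma and Gzmb had log2 ratios of -3.11 ± 1.15 and -2.80 ± 0.822 (SE, unadjusted p = 0.0241 and 0.00806, edgeR adjusted p = 0.955 for both). These values rest on the 3-month pool 2, whose 8 T cells held 117 Gzma and 57 Gzmb UMIs: without it they were -0.42 and -0.64. Without barcodes of the 5 other classes the Gzma ratio was 0.08, with the 3-month pool 3 as the only young pool. Eomes pointed the other way, at 3.41 ± 0.989 (SE, unadjusted p = 0.00751, adjusted p = 0.955), from 2 UMIs in the 31 T cells of the 3-month pools tested to 76 in the 106 T cells of the 15-month pools. All 3 of the 15-month T pools (40.5 to 119.9 CPM) were above both 3-month pools (0 and 9.89 CPM). The share of all genes whose T pools separate by age in this way was not counted, so this is a description. The Eomes ratio stayed between 2.79 and 7.53 in the 13 alternatives that gave a value, and it passed the threshold without the low-count filter (adjusted p = 0.00316) but in none of the other 12. The remaining tested members had log2 ratios of 0.86 ± 0.775 (Gzmk), -0.20 ± 0.592 (Ifng), -0.32 ± 0.548 (Fasl) and -0.34 ± 0.462 (Nkg7), as SE. Some calls depended on the setting: without the low-count filter Gzma (-3.02, edgeR adjusted p = 3.93e-12) and Gzmb (-2.74, 3.14e-08) passed. The p-values without that filter may leave out spread between pools. With at least 10 cells per sum, which left the 3-month pool 3 as the only young pool, Gzmk stood at 2.87.

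Whether the age difference itself differed between NK and T cells was tested as an interaction. No gene of 3710 was called (0.0%) by edgeR, while 217 had an unadjusted p under 0.05 and DESeq2 called 1. For the members the NK minus T difference in the log2 age ratio was 3.66 ± 1.22 for Gzma, 3.35 ± 0.923 for Gzmb and -3.32 ± 1.27 for Eomes (SE, edgeR adjusted p = 0.751, 0.523 and 0.799). The other 6 members had adjusted p-values from 0.888 to 1.0. Without the low-count filter these 3 passed (edgeR adjusted p = 3.89e-30, 8.36e-14 and 0.0176), with p-values that may leave out spread between pools. The Gzmb difference was 5.03 without the 3-month pool 3, which left the 3-month pool 2 as the only young pool. Without the 3-month pool 2 the Gzma and Gzmb differences were 1.40 and 1.28, and without barcodes of the 5 other classes 0.73 and 1.00. The sign of the difference changed in at least 1 alternative for Gzmk, Nkg7, Ifng and Tbx21.

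**Figure D4:**
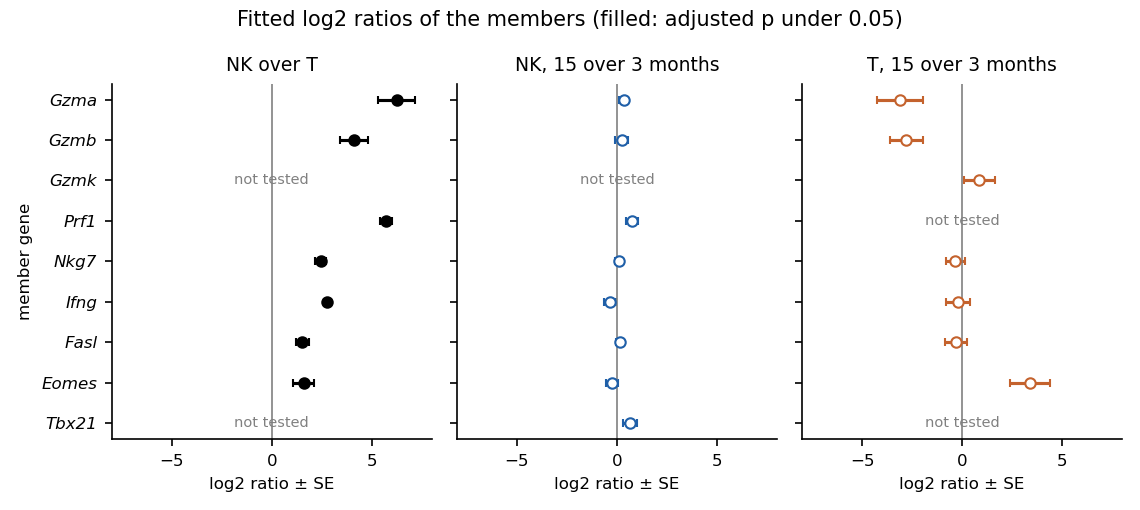
Fitted log2 ratios with their SE for each member, NK over T (left, 5 pools), and 15 over 3 months in NK cells (middle, 6 pools) and in T cells (right, 5 pools). Filled points have an edgeR adjusted p under 0.05, and members that did not pass the low-count filter are marked as not tested. All 7 filled points are in the left panel.

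Among T cells, every member was detected more often in those with Cd8 transcripts than in the rest at both ages. T cells were divided by detection into those with Cd8a or Cd8b1 and no Trdc (17 at 3 months, 62 at 15 months), those with Trdc, the delta chain gene (5 and 9), and the rest (25 and 56). Nkg7 was detected in 94.1% and 96.8% of the Cd8 cells and in 44.0% and 46.4% of the rest. Gzmk was found in 47.1% and 53.2% of the Cd8 cells against 8.0% and 14.3% of the rest, and Prf1 in 41.2% and 38.7% against 12.0% and 8.93%. These groups had median depths of 8834 and 9750 UMIs (Cd8) and 11252 and 6506 UMIs (rest).

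Within the Cd8 cells Gzma was detected in 8 of 17 cells at 3 months (47.1%, exact 95% interval 23.0 to 72.2%) and 3 of 62 at 15 months (4.84%, 1.01 to 13.5%). Eomes went the other way, from 3 of 17 (17.6%, 3.80 to 43.4%) to 35 of 62 (56.5%, 43.3 to 69.0%), where the intervals overlap. Among hashtag singlets alone Gzma was found in 4 of 11 and 3 of 49 Cd8 cells (intervals 10.9 to 69.2% and 1.28 to 16.9%) and Eomes in 1 of 11 and 26 of 49 (0.230 to 41.3% and 38.3 to 67.5%), and both pairs of intervals overlap. By pool, Eomes was found in 0 of 6 and 1 of 5 Cd8 cells at 3 months, and in 1 of 1, 11 of 24 and 14 of 24 at 15 months. Gzma was found in 3 of 6 and 1 of 5, and then in 0 of 1, 2 of 24 and 1 of 24. Such few cells come from 1 library of each age, and no test was made on them.

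In T cells the 3 barcodes with the most Gzma held 193 of 293 Gzma UMIs (65.9%) at 3 months and 104 of 109 (95.4%) at 15 months, compared with 55.6% and 17.3% for Gzmk and 22.5% and 9.41% for Nkg7. Of the Gzma UMIs at 3 months, 155 (52.9%) lay in the 15 T barcodes called as hashtag doublets, among them the barcodes with the most and the third most Gzma. At 15 months the 21 T barcodes called as hashtag doublets held 0 Gzma UMIs. Over the members, the share of T cell UMIs in hashtag doublets ran from 26.3% (Ifng) to 71.4% (Eomes) at 3 months. It ran from 0.0% (Gzma) to 26.5% (Prf1) at 15 months. T cells with at least 2 UMIs of Ncr1, Klrb1c and Klre1 together, 11 and 19 in number, held 64.8% and 89.9% of the Gzma UMIs of T cells. For Gzmk that share was 70.4% at 3 months and 5.10% at 15 months. A hashtag call does not mark droplets with 2 cells of the same pool.

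**Figure D5:**
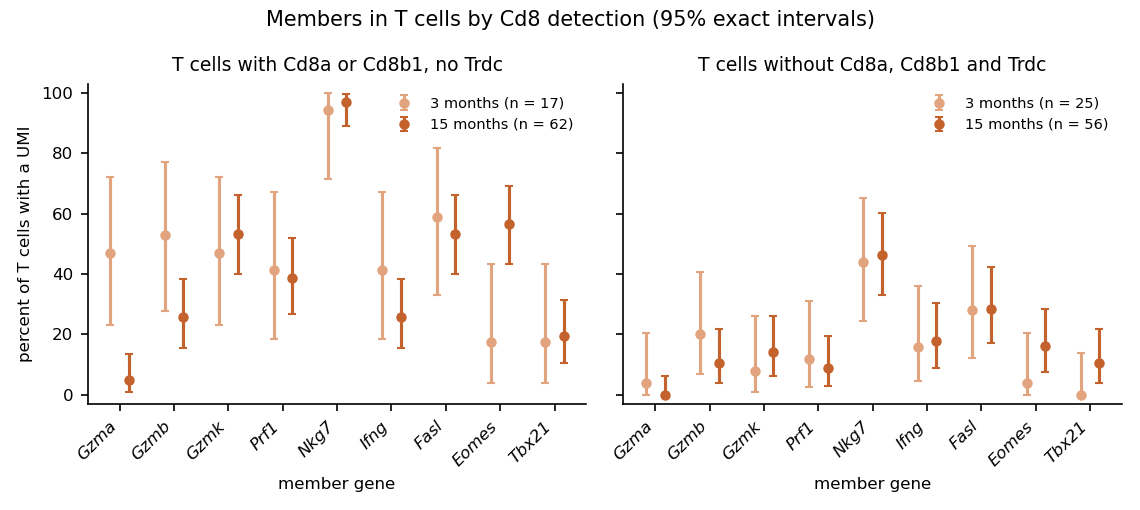
Percent of T cells with a UMI of each member, for cells with Cd8a or Cd8b1 and no Trdc (left) and for cells with none of the 3 genes (right), at 3 months (pale) and 15 months (dark). Bars are exact 95% intervals for counting error within 1 library. Among Cd8 cells Gzma is lower (47.1% and 4.84%) and Eomes higher (17.6% and 56.5%) at 15 months.

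The genes most like each member were sought across the gated classes. Likeness was Pearson's r of log2(CPM + 1) over 16 points (each class in each library with at least 20 cells), among 6793 genes with at least 50 UMIs in NK and T cells together. The points share libraries and depth, and r is given as a description. Gzma was nearest to the NK receptor genes Klra7 (r = 0.979) and Klrc2 (0.977) and to the adaptor gene Sla2 (0.978), and Prf1 to Klra9 (0.988), Gm19585 (0.985) and Il2rb (0.974). Ifng was nearest to Klrc1 (0.992), Samd3 (0.991) and Cd160 (0.99). Gzmk was nearest to Actn2 (0.971), Cd8a (0.968) and Cd8b1 (0.962). Fasl was nearest to Cd96 (0.995), Sh2d2a (0.994) and Gm2682 (0.993), Nkg7 to Txk (0.976), Qrfp (0.97) and Cd96 (0.961), and Gzmb to Qrfp (0.974), Skap1 (0.967) and Prkcq (0.96). Eomes was nearest to Gm14029 (0.997), Samd3 (0.995) and Trdv4 (0.995), and Tbx21, with the loosest fits, to Gm19585 (0.924), Lax1 (0.918) and Pim2 (0.914).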

How the data were processed

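The values the authors deposited are unnormalized UMI counts, 1 matrix for each library, with rows for genes and for 3 hashtags and columns for the filtered barcodes. Cell Ranger is named as 4.0.0 per the file headers and as 7.0.0, with FastQC 0.11.4 and mm10, per the submitters' processing notes. Hashtags were called in each library with HTODemux (Seurat 5.3.0, positive quantile 0.99), which left 176 and 200 NK and 32 and 106 T singlets at 3 and 15 months. Library values use all kept barcodes and pool values use singlets. Sums of UMIs over a pool's cells of 1 class (5 cells or more), with the 6 gate genes left out, were fitted with edgeR 4.0.16 in R 4.3.3 (filterByExpr, TMM, quasi-likelihood test, two-sided, Benjamini-Hochberg over all genes tested, threshold 0.05). P-values measure the spread between pools inside libraries, much of which may be left out where no low-count filter was used. Python 3.11.15, numpy 2.4.6 and scipy 1.17.1 gave exact Poisson, conditional binomial and Clopper-Pearson intervals (95%), which cover counting error only. The fits were tested on simulated data. No other columns of per-sample values were present to leave out.

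The members and lists were chosen with earlier results of these data known. Named were all 9 members, up to 4 genes of each list with the smallest p among those past the threshold, and the 3 genes most like each member; the cell type markers, Srgn, the further granzymes and the age-called genes in NK cells were named beyond that rule. Alternatives changed the size factors (RLE), the tool (DESeq2 1.42.0), the low-count filter, the cells per sum, the hashtag rule, the cell filter, the gate, the barcodes that pass 1 of 5 other gates, the pools and the block.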

Additional observations from a re-analysis of the deposited data

Results flagged for a closer look

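A few members were detected in classes that entered no comparison, above the level in macrophages of the same library. Gzmb stood at 393.8 CPM (exact 95% interval 301.2 to 505.9) in barcodes with mast cell or basophil genes at 15 months, with 61 UMIs in 17 of 33 barcodes, against 0.468 CPM in 729 macrophages. Tbx21 stood at 10.1 CPM (5.50 to 16.9) in B cell barcodes at 15 months, with 14 UMIs in 12 of 209 barcodes, against 0.117 CPM in macrophages. Prf1 stood at 5.75 CPM (2.48 to 11.3) in the same B cell barcodes, with 8 UMIs in 7 of them. Tbx21 also stood at 5.46 CPM (2.50 to 10.4) in conventional dendritic barcodes at 15 months, with 9 UMIs in 8 of 147. The 3-month library held 5 mast or basophil and 11 B cell barcodes, so no age comparison was made.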

How the results depend on the processing

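Against 580 genes called between NK and T cells, DESeq2 called 382, the fit with no low-count filter 1353, the fit without barcodes of the 5 other classes 277, and the fits without 1 pool 300 (without the 15-month pool 2) to 689. Of the 7 member calls, those of Fasl and Eomes were lost somewhere. The Eomes call also failed with a mean of at least 50 CPM (adjusted p = 0.0536) and with a strict gate of 3 UMIs and none of the other class's genes (0.0674), and its adjusted p ran from 1.02e-08 to 0.491. With age in NK cells, 7 genes became 69 with no low-count filter, 4 with the hashtag ratio rule (highest tag at least 3 times the next and at least 50 counts), 12 with the strict gate, and 4 (without the 15-month pool 1 or 2) to 16 (without the 3-month pool 1) with 1 pool left out. With age in T cells, 1 became 6 with DESeq2, 71 with no low-count filter, 61 with at least 10 cells per sum, 3 with the ratio rule, 0 without those barcodes and 0 to 2 with 1 pool left out. For the interaction, 0 became 1 with DESeq2, 47 with no low-count filter, 6 with at least 10 cells per sum, 13 without those barcodes and 0 to 5 with 1 pool left out. The causes were not tested.

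Pool numbers did not pair the ages (correlations of deviations 0.287, 0.224 and 0.0166 for equal numbers). With the pool number as a replicate block, 9 genes were called with age in NK cells and 2 in T cells. Without the block 488 were called between NK and T cells. A few members with no call changed sign. With age in NK cells and 1 pool left out, Gzmb ran from -0.069 to 0.79, Nkg7 from -0.032 to 0.34 and Ifng from -0.65 to 0.033. In T cells Gzmk ran from -0.34 to 2.84, Nkg7 from -0.70 to 0.046, Ifng from -0.76 to 0.29 and Fasl from -0.72 to 0.0033. With at least 10 cells per sum Nkg7 stood at 0.36 and Ifng at 0.21, and without those barcodes Gzma stood at 0.077 and Nkg7 at 0.50. Shares of cells stayed within their counting interval in 47 of 72 alternatives, and the 25 outside were all thinned. The 3-month pool 1 could be left out only with age in NK cells. Scrublet marked 6 of 6579 barcodes, so its calls were not used. The 47 T cells at 3 months limit what can be said of T cells.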
